A study of Mus musculus with 6 samples.

Results

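The 9 genes described here encode the Twist factors (Twist1, Twist2), the E proteins (Tcf3, Tcf4, Tcf12), the haematopoietic E protein partner Lyl1 and the Id inhibitors (Id1, Id2, Id3). They were taken by name as members of one helix-loop-helix network, and all 9 were found by Ensembl identifier among the 30409 genes of the deposited tables. RNA-seq was available from 4 libraries of C57BL/6 mouse bone marrow cells sorted as long-term haematopoietic stem cells by the gate Lineage−Sca1+cKit+CD34−Flk2−. One library came from wild-type mice at steady state, 1 from Twist1 conditional knockout (cKO) mice at steady state, 1 from wild-type mice 12 days after irradiation and 1 from Twist1 cKO mice 12 days after irradiation. The sources used here do not give the Cre driver, the radiation dose, the age of the mice or how many mice went into a library. Another 2 samples, assayed by ATAC-seq, were not analysed here. Each group held 1 library, so differences have no replicate check and groups were not tested against each other. Intervals in parentheses are exact 95% intervals that cover counting error only.

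Basic helix-loop-helix proteins bind DNA as dimers at E-boxes, short palindrome-like sites with the letters CANNTG. E proteins are expressed in most tissues and pair with tissue-restricted partners, among them the Twist factors in mesenchyme and Lyl1 and its relative Tal1 in blood. Id proteins carry the dimerization domain but lack the basic region that contacts DNA, so an E protein bound to an Id is held away from its sites. In blood the balance of E proteins and Ids is known for its part in stem cell maintenance and in the choice between lymphoid, myeloid and erythroid fates, and Id1 and Id3 are classical targets of bone morphogenetic protein signalling through Smad factors.

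Levels are FPKM, reads scaled by the authors for gene length and library size. The whole number of reads behind every FPKM was worked back from the tables, and these reads summed to 19938569 to 24567595 per library. Defining transcripts of the sorted cells were present at steady state, where all 12 stem cell markers examined (among them Ly6a, Kit, Procr and Hlf) reached 1 FPKM in both libraries. The antigens that the gate excludes were also detected at steady state, Cd34 at 18.4 and 29.2 FPKM and Flt3, which encodes Flk2, at 6.26 and 9.32 FPKM. After irradiation only 4 of the 12 stem cell markers reached 1 FPKM in wild type and 5 in the cKO library. Hlf, a stem cell transcription factor, stood at 17.4 and 17.7 FPKM at steady state, then at 0.0608 and 0.102 FPKM after irradiation (wild type first). Summed erythroid markers went the other way, from 2508 and 1388 FPKM to 9530 and 12180 FPKM. Most of the defining transcripts of the labelled cell type were thus scarce in the irradiated libraries, and in bulk RNA fewer cells of a type cannot be told apart from less RNA per cell. Transcripts of the sex chromosomes also divided the libraries by condition: Xist, made from the inactive X, had 0.0155 to 0.0171 FPKM at steady state and 0.573 to 1.003 after irradiation, and the Y-linked Ddx3y 10.2 to 12.4 against 0.0164 to 0.0521. Irradiation and sex-linked expression cannot be told apart in these libraries.

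Because this network acts through E-boxes, the 250 bases upstream of a transcript start of 4 of the genes are shown with each E-box in capitals. RefSeq promoter sequences (GRCm38.p6) were at hand for 7 of the 9 genes, and Id1 and Tcf4 had none. Sequences run 5′ to 3′ on the strand of the gene and end at the base before the transcript start. They are Id2 at chr12:25096093-25096342 (minus strand), Id3 at chr4:136143572-136143821 (plus strand), Lyl1 at chr8:84701207-84701456 (plus strand) and Tcf3 at chr10:80433636-80433885 (minus strand). The Tcf3 window lies inside the span of the gene given below, and the Lyl1 window runs past the first base of its gene.
Id2: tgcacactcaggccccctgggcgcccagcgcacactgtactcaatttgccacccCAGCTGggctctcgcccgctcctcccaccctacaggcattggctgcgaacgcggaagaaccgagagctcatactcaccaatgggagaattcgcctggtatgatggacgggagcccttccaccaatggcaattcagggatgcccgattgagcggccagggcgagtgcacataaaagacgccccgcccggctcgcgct
Id3: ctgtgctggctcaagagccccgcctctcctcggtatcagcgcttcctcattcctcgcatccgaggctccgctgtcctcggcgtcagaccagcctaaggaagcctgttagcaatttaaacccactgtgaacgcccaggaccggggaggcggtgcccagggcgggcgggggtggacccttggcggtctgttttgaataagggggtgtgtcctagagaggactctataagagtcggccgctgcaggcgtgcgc
Lyl1: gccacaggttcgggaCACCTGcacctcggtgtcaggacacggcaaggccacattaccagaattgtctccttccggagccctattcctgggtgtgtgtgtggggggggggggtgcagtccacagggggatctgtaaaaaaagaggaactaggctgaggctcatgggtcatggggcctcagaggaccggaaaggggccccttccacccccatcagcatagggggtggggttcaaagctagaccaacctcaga
Tcf3: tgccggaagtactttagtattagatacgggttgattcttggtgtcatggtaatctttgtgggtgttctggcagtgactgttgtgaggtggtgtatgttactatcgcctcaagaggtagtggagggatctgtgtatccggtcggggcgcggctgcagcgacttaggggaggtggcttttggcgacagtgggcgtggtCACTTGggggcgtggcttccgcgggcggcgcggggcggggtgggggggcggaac
The Id2 window held 1 E-box, CAGCTG, starting 196 bases before the transcript start. Lyl1 held CACCTG at 235 bases and Tcf3 held CACTTG at 54 bases. No match lay in the windows of Id3, Twist1 or Twist2, whereas Tcf12, which has 3 promoter entries, held CAGCTG in the first and CAAGTG in the second. Of all 32851 promoter windows of this length, 66.2% held at least 1 CANNTG, counted on both strands since its reverse complement is again CANNTG. Within these, CAGCTG, or CAGGTG on either strand, occurred in 27.7% of all windows. A match describes the letters only.

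Twist1, the deleted gene (ENSMUSG00000035799, GRCm38 chromosome 12, 33957671 to 33959831), was near the limit of detection everywhere. At steady state 6 reads came from wild type (0.143 FPKM, 0.0523 to 0.310) and 2 from cKO (0.0490 FPKM, 0.00594 to 0.177). In irradiated mice the count was 5 for wild type (0.14 FPKM, 0.0454 to 0.326) and 0 for cKO, for which a count of 3 corresponds to 0.0792 FPKM. Both cKO values were below both wild-type values. The cKO over wild-type ratio at steady state was 0.344 with an interval of 0.0339 to 1.92, and the irradiated ratio had an upper limit of 1.03, so the counts did not separate the genotypes in either condition. The exons removed by the deletion are not given here, so these reads check the labels only in part. Twist2, the close relative of Twist1 (chromosome 1, 91801461 to 91848034), had 0, 2, 1 and 0 reads in the wild-type and cKO libraries at steady state and the same pair after irradiation. It was below the level of 3 reads in all 4 libraries.

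Twist factors are known from mesenchyme, and transcripts of marrow stroma were measured beside them. Over 11 stroma markers the summed level was 88.5 FPKM in the wild-type and 47.4 FPKM in the cKO library at steady state, then 30.9 and 24.2 FPKM after irradiation. All 11 markers were above 0 in each library. The sum was higher in wild type in both conditions, but Sp7 at steady state and Cxcl12, Lepr, Adipoq and Col3a1 after irradiation were higher in cKO. The part of stroma in the Twist1 reads was not tested.

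**Figure D1:**
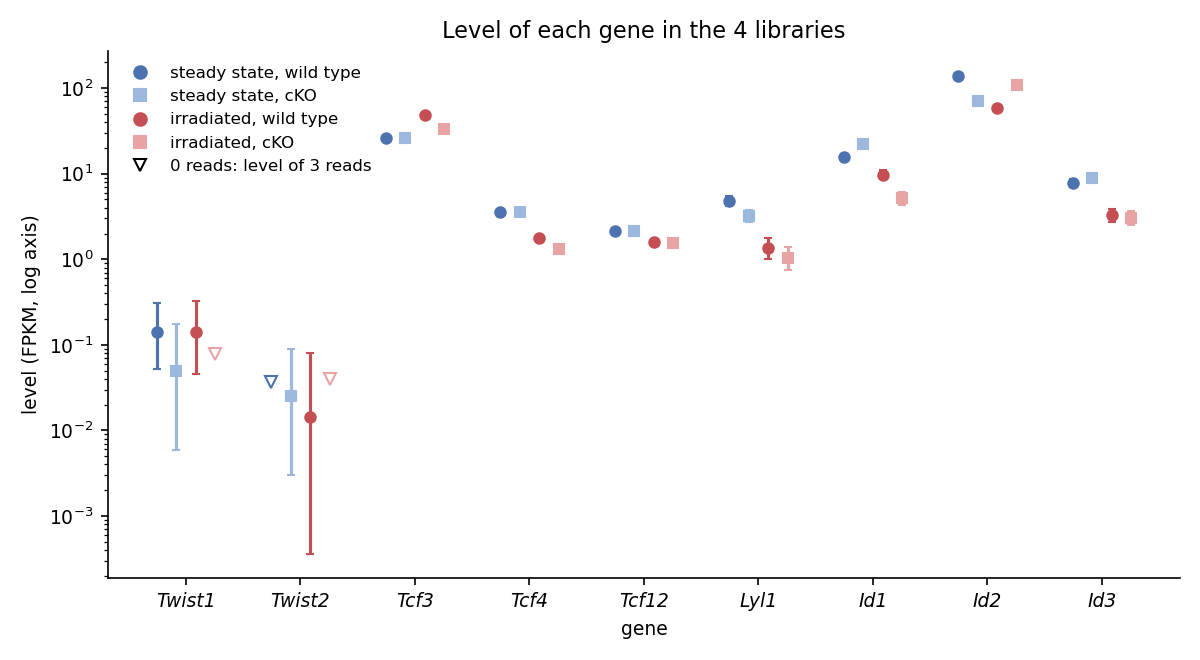
Level of each gene (FPKM, log axis) in the 4 libraries. Points are single libraries, bars are exact 95% counting intervals and open triangles mark the level of 3 reads where a library had 0 reads. Twist1 and Twist2 lie below 1 FPKM, Id2 and Tcf3 at the top with 58.6 to 139.5 and 26.0 to 48.0 FPKM.

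Tcf3, which encodes the E2A proteins E12 and E47 (ENSMUSG00000020167, chromosome 10, 80409541 to 80433976), was the E protein gene with the highest level per length. It had 26.0 FPKM (25.1 to 27.0) in wild type and 26.2 FPKM (25.2 to 27.2) in the cKO library at steady state. After irradiation it had 48.0 FPKM (46.6 to 49.5) in wild type and 33.4 FPKM (32.3 to 34.6) in the cKO library. Both irradiated libraries were above both steady-state libraries, and the intervals of the steady-state pair overlapped. Irradiated over steady state, the ratio was 1.85 (1.76 to 1.94) in wild type and 1.28 (1.21 to 1.34) in cKO. The genotype ratio was 1.01 (0.954 to 1.06) at steady state and 0.696 (0.664 to 0.729) after irradiation. This last value lay close to the general shift between the irradiated libraries. On the log2 scale of FPKM + 1 the difference of Tcf3 was −0.51, beside a median of −0.45 over all genes compared.

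Tcf4 (also called E2-2, the E protein of plasmacytoid dendritic cells, ENSMUSG00000053477) had 3.58 FPKM (3.45 to 3.73) and 3.54 FPKM (3.40 to 3.68) at steady state, wild type first. After irradiation it had 1.76 FPKM (1.66 to 1.87) and 1.34 FPKM (1.25 to 1.43), so Tcf4 was lower in both irradiated libraries while Tcf3 was higher. The ratio of irradiated over steady state was 0.491 (0.457 to 0.528) in wild type and 0.378 (0.349 to 0.408) in cKO. The 7 markers of plasmacytoid dendritic cells, none at 0, summed to 133.9 to 213.8 FPKM. Of these, Siglech, a surface lectin of that cell type, was at 0.0882 to 0.117 FPKM in all 4 libraries, and Bst2, which interferon also raises in other cells, at 125.6 to 206.6 FPKM. Runx2 was lower after irradiation in both genotypes (3.12 and 3.19, then 0.1635 and 0.1785 FPKM), as were Cox6a2 and Ccr9. Irf8 and Spib were lower in wild type and higher in cKO. The part of these cells in the Tcf4 values was not tested. Tcf12 (HEB, ENSMUSG00000032228, chromosome 9, 71844252 to 72111893) had 2.15 FPKM (2.01 to 2.30) and 2.12 FPKM (1.98 to 2.27) at steady state, then 1.60 FPKM (1.47 to 1.74) and 1.53 FPKM (1.41 to 1.66) after irradiation. Its intervals overlapped between genotypes in both conditions. Irradiated over steady state, it stood at 0.742 (0.665 to 0.826) in wild type and 0.721 (0.646 to 0.803) in cKO, the smallest departure from 1 among the E proteins in the wild-type pair.

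Ratios between genes of 1 library do not depend on how libraries are scaled. Tcf4 over Tcf3 was 0.138 (0.130 to 0.145) and 0.135 (0.128 to 0.143) at steady state, then 0.0367 (0.0343 to 0.0392) and 0.0400 (0.0370 to 0.0431) after irradiation. Tcf12 over Tcf3 went from 0.0827 and 0.0810 to 0.0332 and 0.0458. The irradiated libraries therefore drew a larger share of their E protein transcripts from Tcf3, 93.5% and 92.1% against 81.9% and 82.2% of the summed FPKM. This order rests on gene-model length: the values imply a model of 27382 bases for Tcf4 and 4039 bases for Tcf3, and in reads Tcf4 had 2555 against 2737 for Tcf3 in the wild-type library at steady state.

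Lyl1, a basic helix-loop-helix factor of blood stem and progenitor cells that acts with E proteins (ENSMUSG00000034041, chromosome 8, 84701423 to 84704716), had 4.84 FPKM (4.24 to 5.52) in the wild-type and 3.19 FPKM (2.69 to 3.76) in the cKO library at steady state. After irradiation it had 1.36 FPKM (1.02 to 1.77) and 1.04 FPKM (0.757 to 1.40), from 54 and 44 reads. It was higher at steady state than after irradiation in both genotypes, by 3.58-fold (2.65 to 4.91) in wild type and 3.06-fold (2.17 to 4.39) in cKO. Its genotype ratio was 0.659 (0.531 to 0.815) at steady state and 0.770 (0.505 to 1.17) after irradiation. Tal1, which encodes the closely related stem cell leukaemia factor, stayed nearer to level with 8.66, 7.83, 8.66 and 6.10 FPKM in the order steady-state wild type, steady-state cKO, irradiated wild type, irradiated cKO. Lyl1 over Tal1 within a library was thus 0.560 (0.482 to 0.647) and 0.408 (0.340 to 0.487) at steady state against 0.156 (0.117 to 0.206) and 0.171 (0.123 to 0.232) after irradiation.

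Id2, the Id gene of innate lymphoid, dendritic and natural killer cells, had the highest level per length of the 9 genes in every library (ENSMUSG00000020644, chromosome 12, 25093799 to 25096092). It had 139.5 FPKM (135.5 to 143.6) in the wild-type and 71.0 FPKM (68.1 to 74.0) in the cKO library at steady state. After irradiation it had 58.6 FPKM (55.8 to 61.5) in the wild-type and 107.5 FPKM (103.9 to 111.3) in the cKO library. The genotypes therefore stood in opposite order in the 2 conditions, with no overlap of intervals. In cKO, Id2 was 1.97-fold (1.87 to 2.07) lower than in wild type at steady state but 1.83-fold (1.73 to 1.95) higher after irradiation.

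Id1, the Id gene most closely tied to bone morphogenetic protein signalling (ENSMUSG00000042745, chromosome 2, 152736251 to 152737410), stood in the reverse order to Id2. It had 15.5 FPKM (14.2 to 17.0) in the wild-type and 22.1 FPKM (20.5 to 23.9) in the cKO library at steady state. After irradiation it had 9.73 FPKM (8.56 to 11.0) in the wild-type and 5.15 FPKM (4.33 to 6.07) in the cKO library. The cKO library was 1.43-fold (1.26 to 1.61) higher at steady state and 1.89-fold (1.53 to 2.34) lower after irradiation. Id1 over Id2 within a library was 0.111 (0.101 to 0.122) in wild type and 0.312 (0.285 to 0.340) in cKO at steady state, then 0.166 (0.145 to 0.190) and 0.0479 (0.0401 to 0.0567) after irradiation.

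Id3, the third inhibitor and also a Smad target (ENSMUSG00000007872, chromosome 4, 136143822 to 136145392), differed little between genotypes. Its levels were 7.83 FPKM (7.05 to 8.68) and 8.85 FPKM (8.0 to 9.76) at steady state, then 3.30 FPKM (2.76 to 3.92) and 3.05 FPKM (2.54 to 3.62) after irradiation, wild type first. The intervals overlapped within each condition, and the genotype ratios of 1.13 (0.978 to 1.31) and 0.923 (0.718 to 1.19) both included 1. Both irradiated libraries were below both steady-state libraries.

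**Figure D2:**
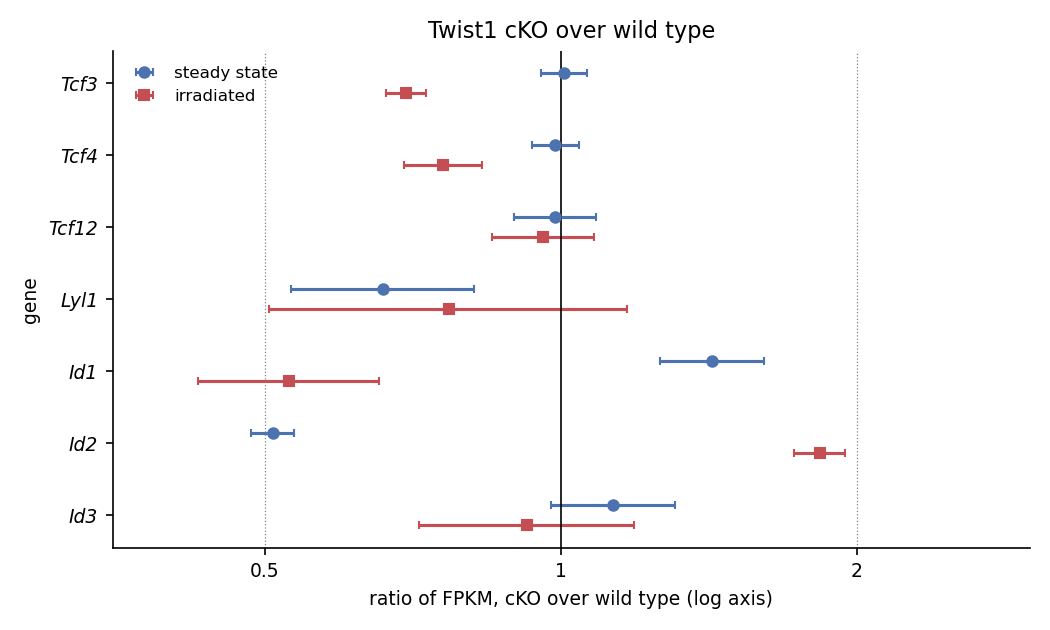
Ratio of FPKM in cKO over wild type (log axis) for the 7 genes with more than 6 reads in each library, at steady state (circles) and after irradiation (squares), with exact 95% counting intervals. Dotted lines mark 2-fold. Id1 and Id2 lie on opposite sides of 1 in both conditions and swap sides between them.

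Counted by the rule used for all genes, 0 of the 9 genes were at least 2-fold apart between the genotypes in either condition. The rule took genes whose higher library reached 5 FPKM and asked for a difference of 1 on the log2 scale of FPKM + 1. Tcf3, Id1, Id2 and Id3 reached 5 FPKM at steady state and Tcf3, Id1 and Id2 after irradiation. Among 7157 genes compared at steady state, 0.643% passed this mark with the cKO library higher and 2.7% with it lower. Among 6348 genes compared after irradiation, 4.47% passed it with cKO higher and 1.04% with cKO lower. The share that was higher among all genes past 2-fold was 81.1% after irradiation. It was 86.4% when libraries were scaled by the median of ratios, 92.2% to 94.1% by the upper quartile, read totals or without the 50 most abundant genes, and 94.2% when centred on the median of all genes. At steady state it was 19.2%, with 29.8% by read totals and 35.4% without the 50 most abundant genes. Id2 came closest, with differences of −0.97 at steady state and 0.86 after irradiation. Against all genes compared, these lay at the 2.8th and the 94.9th percentile, and those of Id1, 0.49 and −0.80, at the 97.4th and the 3.4th. The median over all genes was 0.01 at steady state and −0.45 after irradiation. Relative to that median the difference of Id2 after irradiation was 1.31 and it passed 2-fold, as it did when libraries were scaled to recovered read totals. The difference of Id1 was smaller relative to that median, at −0.36, so its 1.89-fold value includes the general shift between the irradiated libraries.

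The change of order was also described for each gene as the irradiation difference in cKO less that in wild type, again on the log2 scale of FPKM + 1. It was 1.83 for Id2 and −1.29 for Id1, beside a median of −0.40 over 7772 genes at 5 FPKM or more in any library. In size, 290 of those genes lay further from 0 than Id2 and 468 further than Id1. Counted from the median instead, Id2 stood at 2.23 and Id1 nearer, at −0.89. By rank, Id1 lay at the 0.9th percentile and Id2 at the 96.7th, so fewer genes lay beyond Id1 on its own side. Tcf3 (−0.52) and Id3 (−0.25) lay near the median. Lyl1 had 0.27, Tcf4 −0.23 and Tcf12 −0.02 and did not reach 5 FPKM in any library.

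**Figure D3:**
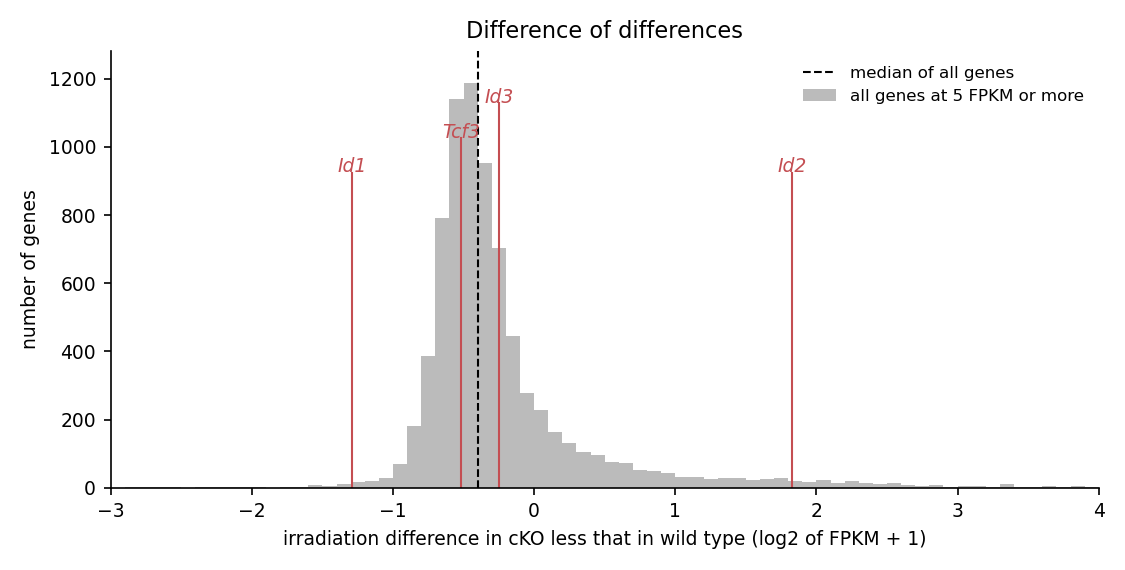
Number of genes (vertical axis) by irradiation difference in cKO less that in wild type (horizontal axis, log2 of FPKM + 1) for 7772 genes, shown from −3 to 4. Red lines mark the 4 genes of the network that reached 5 FPKM: Id1 at −1.29 and Id2 at 1.83 stand on opposite flanks, while Tcf3 and Id3 stand near the dashed median of −0.40.

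Transcripts of macrophages stood in the same order as Id2 in both genotype comparisons. The sum over 7 macrophage markers was 1428 FPKM in the wild-type and 450.8 FPKM in the cKO library at steady state, then 831.7 and 1464 FPKM after irradiation. All 7 were above 0 in each library, among them the complement gene C1qb at 599 and 183 FPKM at steady state, then 352 and 616 FPKM after irradiation. Summed markers of T and natural killer cells were 367.1 and 364.4 FPKM at steady state, then 86.1 and 139.2 FPKM after irradiation. Nkg7 made up most of these sums (318.3 and 325.1, then 75.6 and 98.2 FPKM). In cKO, Cd3d, Cd3e, Cd3g, Trbc2 and Ncr1 were higher after irradiation, with Cd3g at 7.89 against 2.11 FPKM, and Trbc1, Klrb1c and Nkg7 lower. In wild type only Cd3d was higher, at 1.09 against 0.929 FPKM. The sums of B and plasma cell markers (5409 and 2980, then 1501 and 4453 FPKM) also stood in the order of Id2, and Pax5 among them was at 0 in the irradiated wild-type library. Jchain made up most of these sums (5063 and 2794, then 1423 and 4264 FPKM). The order was the other way for Pax5 at steady state (0.0217 and 0.0313 FPKM) and Ms4a1 after irradiation (0.226 and 0.200 FPKM). The part of these cells in the Id2 values was not tested. Kit, a receptor of the gate, stood in the order of Id1, with 20.1 and 27.6 FPKM at steady state, then 8.52 and 4.98 FPKM after irradiation, whereas Ly6a, which encodes Sca1, stood in the order of Id2 with 533.5 and 361.8, then 89.1 and 255.7 FPKM.

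After irradiation Id1, Id3 and Lyl1 had lower levels in both genotypes, and Id2 had a lower level in wild type and a higher one in cKO. In wild type, Id2 (0.420, 0.397 to 0.445), Id3 (0.422, 0.343 to 0.517) and Id1 (0.627, 0.535 to 0.732) all had ratios of irradiated over steady state below 1, while Tcf3 was above 1. In cKO, Id1 (0.233, 0.192 to 0.280) and Id3 (0.344, 0.280 to 0.421) were lower and Id2 was higher (1.52, 1.44 to 1.60). By the rule above, Id2 and Id3 counted as lower in wild type (differences of −1.24 and −1.04), 2 of the 4 genes at 5 FPKM. In cKO the 2 of 4 were Id1 (−1.91) and Id3 (−1.28). Id3 reached 5 FPKM at steady state alone, with 3.30 and 3.05 FPKM after irradiation. Its lower irradiated level was therefore fixed by how it entered the count in both genotypes. None of the 4 counted as higher, although Tcf3 did in wild type (1.01) when libraries were scaled by the median of ratios. Such differences were common. In wild type 18.9% of 7418 genes passed 2-fold with the irradiated library lower and 18.9% with it higher, and in cKO 22.6% and 10.3% of 7393 genes. The share that was higher among these moved with the scaling, from 50% to between 26.8% and 59.8% in wild type and from 31.3% to between 22.7% and 59.2% in cKO. Lyl1, at 4.84 FPKM, lay just under the minimum, and its differences were −1.31 and −1.04. All irradiation values stand beside the lower stem cell and higher erythroid markers given above. Summed markers of megakaryocytes (369.7 and 331.1, then 14.2 and 29.9 FPKM) and neutrophils (2766 and 3494, then 444.1 and 1360 FPKM) were also lower, and the part of these cells in the irradiation values was not tested.

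**Figure D4:**
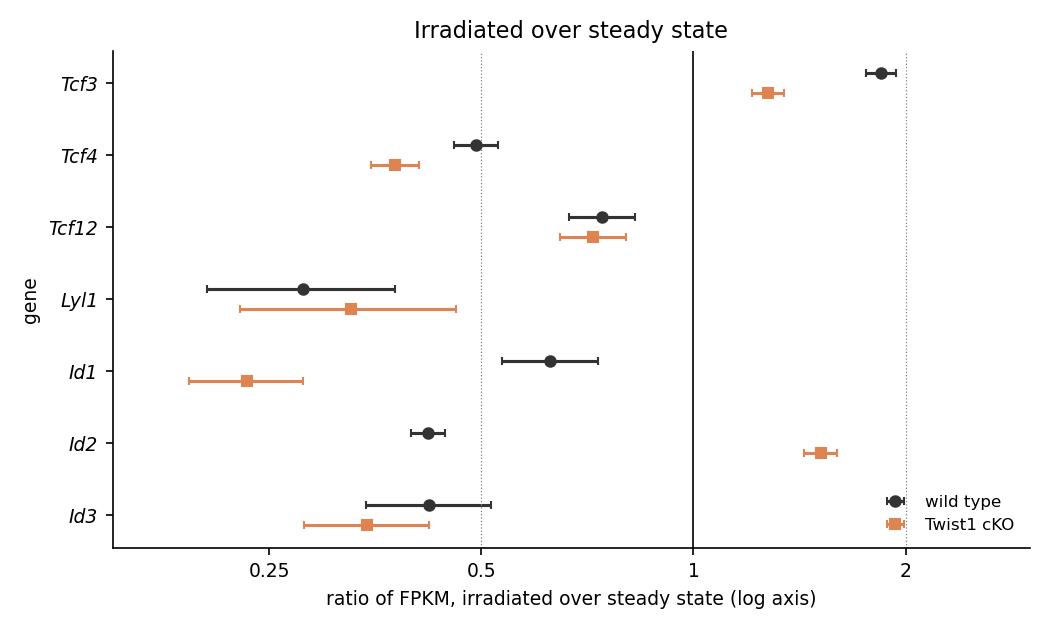
Ratio of FPKM in irradiated over steady-state libraries (log axis) for 7 genes, in wild type (circles) and Twist1 cKO (squares), with exact 95% counting intervals. Dotted lines mark 2-fold. Tcf3 lies above 1 in both genotypes, Id2 below 1 in wild type and above 1 in cKO, and the other 5 genes below 1 in both.

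Ids act by binding E proteins, so their summed levels were set side by side. The 3 Ids summed to 162.9 FPKM in the wild-type and 102.0 FPKM in the cKO library at steady state, against 31.8 and 31.9 FPKM for the 3 E proteins. After irradiation the Ids summed to 71.7 FPKM in wild type and 115.7 FPKM in cKO, against 51.4 and 36.3 FPKM. The Id to E protein ratio was therefore 5.13 and 3.20 at steady state, then 1.39 and 3.19 after irradiation, highest in the wild-type library at steady state and lowest in the irradiated wild-type library. Id2 made up 69.6% to 92.9% of the Id sum and set this order. Without it the ratio was 0.735 and 0.972 at steady state, then 0.254 and 0.226 after irradiation, so Id1 and Id3 together were lower against E proteins in both irradiated libraries. Taking Id2 and Tcf3 alone, the ratio was 5.36 (5.11 to 5.62), 2.71 (2.56 to 2.87), 1.22 (1.15 to 1.29) and 3.22 (3.06 to 3.38) in the same order of libraries. These are ratios of transcripts scaled by gene-model length, and the intervals do not cover error in length. Protein was not measured here.

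**Figure D5:**
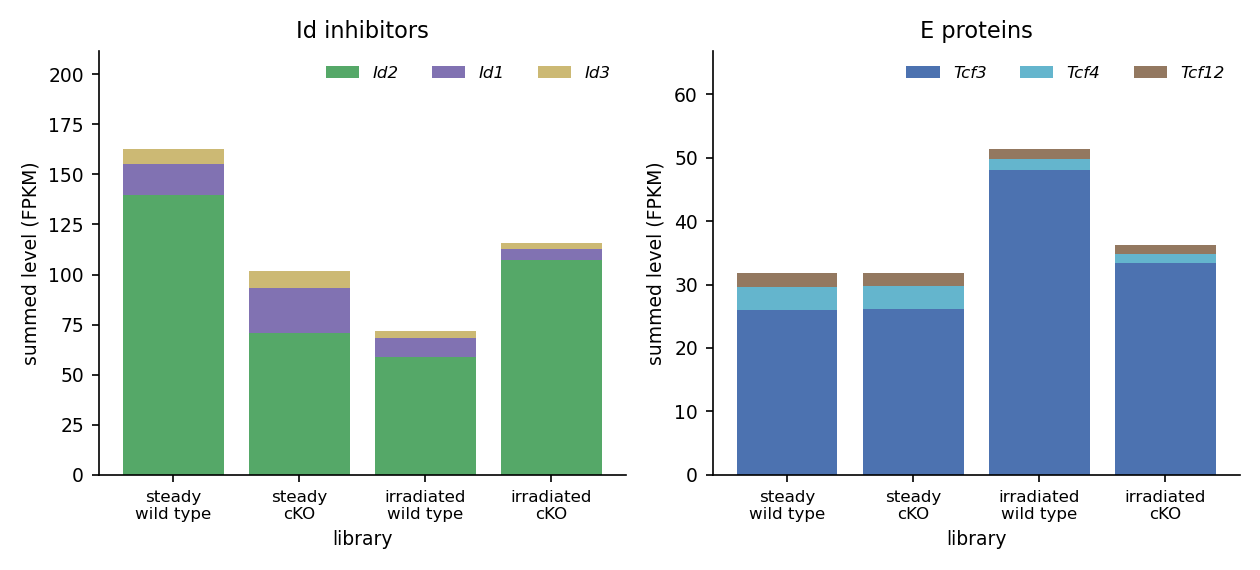
Summed level (FPKM) of the 3 Id genes (left) and the 3 E protein genes (right) in each library, with each gene as a coloured part of the bar. Id2 makes up most of the Id bars, which run from 71.7 to 162.9 FPKM, and Tcf3 most of the E protein bars, which run from 31.8 to 51.4 FPKM on an axis of their own.

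Within a library the order of levels was largely fixed. From the top, Id2, Tcf3, Id1 and Id3 followed each other in all 4 libraries, and their intervals did not overlap. This order is per gene-model length, and the intervals do not cover error in length. In reads, Tcf4 had 2555 in the wild-type library at steady state, against 469 for Id1 and 365 for Id3. Lyl1, Tcf4 and Tcf12 followed in an order that changed: at steady state Lyl1 led in wild type, its interval overlapped that of Tcf4 in cKO, and after irradiation Lyl1 had the lowest value of the 3, with an interval that overlapped that of Tcf4. Intervals of Tcf4 and Tcf12 overlapped in both irradiated libraries. Twist1 and Twist2 came last in each library.

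Genes with the most similar pattern were sought for the 4 genes at 5 FPKM or more, by Euclidean distance of centred log2 (FPKM + 1) over the 4 libraries, with 4 points each. Nearest to Id2 were Pld3 (distance 0.0741), Pla2g7 (0.119) and Ctss (0.15), which encode an endolysosomal exonuclease, a secreted phospholipase and cathepsin S. Ctss had 364.5, 173.1, 143.5 and 242.8 FPKM in the order steady-state wild type, steady-state cKO, irradiated wild type, irradiated cKO. Nearest to Id1 were Ddah2 (0.174), Map7 (0.175) and Tagap1 (0.224), nearest to Id3 Ccdc166 (0.0250) and Fam189b (0.0327), and nearest to Tcf3 Eif2a (0.0241), Coq4 (0.0263) and Tubd1 (0.0265). Of these 4 sets, the distances for Id1 were the longest.

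Other genes of the network were followed in 7 lists: E protein partners, other helix-loop-helix inhibitors, cofactors of E protein complexes, the bone morphogenetic protein and TGF-beta pathway, lymphoid E protein targets, genes tied to Twist in epithelial-mesenchymal transition, and inhibitors of cyclin-dependent kinases. Of 95 genes measured, 34 reached 5 FPKM in the genotype comparison at steady state and 0 of them were 2-fold apart (median −0.06, all genes 0.01). After irradiation 21 reached it, with Cd79a, a chain of the B cell receptor, higher in cKO at 57.2 against 25.4 FPKM and Hes1, a repressor downstream of Notch, lower at 3.22 against 7.85 FPKM. The median of the 21 genes was −0.42 beside −0.45 for all genes. The difference of Hes1, −1.07, includes this general shift between the irradiated libraries.

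Most list genes that reached 5 FPKM were at least 2-fold lower after irradiation. In wild type 20 of 34 were lower by that mark and 1 was higher, with a median of −1.37 beside 0.21 for all genes, of which 18.9% were lower and 18.9% higher by the same mark. In cKO 20 of 33 were lower and 1 was higher, with a median of −1.13 beside −0.20 for all genes, of which 22.6% were lower and 10.3% higher. These shares are also those to set beside the counts of single lists that follow. In all these counts the minimum is met by the higher library, so some genes entered through steady state alone. For such genes, among them Tcf15, Smad1, Eng, Dntt and Cdkn1c, a lower irradiated level was fixed by how they entered. The gene that was higher in both genotypes was Gata1, the erythroid GATA factor that binds with Tal1 and E proteins, at 178.8 against 42.2 FPKM in wild type and 118.0 against 38.9 FPKM in cKO. Among the cofactors, Gata2, the stem and progenitor GATA factor, stood at 8.33 against 44.9 FPKM in wild type and 5.98 against 54.1 FPKM in cKO, and Lmo2, the bridge of the complex, at 134.0 against 425.1 and 86.2 against 456.6 FPKM. Tcf15, an E protein partner, had 27.7 and 24.7 FPKM at steady state, then 0.968 and 0.566 FPKM after irradiation.

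Of the Smad pathway genes that reached 5 FPKM, 5 of 7 were at least 2-fold lower after irradiation in each genotype. Of those counted, all in cKO and all but Smad4 in wild type were under 5 FPKM after irradiation. For these genes the direction was fixed by how they entered. Smad1, which carries bone morphogenetic protein signals to the nucleus, had 9.19 and 10.9 FPKM at steady state, then 0.738 and 1.18 FPKM after irradiation. Eng, a co-receptor of the pathway, had 8.38 and 9.55, then 1.96 and 2.21 FPKM, and Smad4, the shared partner of the Smads, 16.6 and 17.1, then 5.10 and 4.12 FPKM. At steady state Smad1 and Eng were slightly higher in cKO (differences of 0.23 and 0.17), as Id1 was, and Tgfbr2 was slightly lower (−0.09). None of these was 2-fold apart. After irradiation Smad1 and Eng, then under 5 FPKM, were again higher in cKO (0.33 and 0.12), whereas Id1 was lower (−0.80).

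Of the lymphoid targets of E proteins, 5 of 6 in wild type and 4 of 6 in cKO were at least 2-fold lower after irradiation. Dntt, the terminal transferase of lymphoid progenitors, had 14.5 and 12.4 FPKM at steady state, then 1.51 and 1.82 FPKM after irradiation. Of the Cdk inhibitors, 3 of 4 in wild type and 2 of 4 in cKO were at least 2-fold lower, and the difference was largest for Cdkn1c (p57), with 8.44 and 7.36, then 0.177 and 0.376 FPKM. Cdkn1a (p21), a known target that E proteins activate and Ids restrain, had 79.4 and 68.9, then 29.5 and 36.6 FPKM. In the list tied to Twist, Vim, an intermediate filament of motile cells, and Bmi1, a Polycomb gene of stem cell renewal, reached 5 FPKM. Vim was lower after irradiation in both genotypes (7.43 against 22.9 and 8.17 against 25.2 FPKM), and Bmi1 was 2-fold lower in cKO alone (5.17 against 11.4 FPKM, with 6.80 against 9.14 FPKM in wild type), a difference between genotypes that was not tested. It includes the general shift, since the median over all genes was −0.20 in cKO and 0.21 in wild type. Cdh1, the epithelial cadherin, was at 0 to 0.168 FPKM.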

How the data were processed

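RNA-seq of 4 libraries was used. The authors deposited FPKM per gene, 1 file per library, per the file headers. Tools listed for the series, per the submitters' processing notes, are HOMER, MACS2 2.1.0, Bowtie and BWA 0.7.12-r1039, with the build mm10. The step behind the RNA-seq values is not stated among them. Symbols were joined to 30231 of 30409 identifiers, and positions are from RefSeq on GRCm38.p6.

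Differences were taken as log2 (FPKM + 1), which understates changes of low genes, over genes whose higher library reached 5 FPKM, and counted at 2-fold. Reads were recovered as the smallest integers that stand in the proportions of a gene's 4 values, and library sizes from 10 mitochondrial genes of known length. These sizes, 22146433 to 26031985, were 0.914 to 1.18 times the reads recovered. A common integer factor could be missing from a gene's reads, and its intervals would then be narrower. Intervals are Clopper-Pearson for levels and conditional binomial for ratios. The script was tested on simulated data. An additive fit of genotype and condition, with 1 residual degree of freedom, was not run.

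The members and lists were chosen with earlier results of these data known. Named were all 9 members, the 3 nearest patterns of each at 5 FPKM (1 of them is not reported here), and from each list genes among the 4 with the largest difference in a comparison. Outside this rule, Cdh1, Tgfbr2, Xist, Ddx3y and single marker genes were chosen after their values were seen. Alternatives were 2 other pseudocounts, 3 other minimum levels, 4 scalings, removal of non-coding symbols and, added after seeing the data, centring on the median of all genes. Python 3.11.15 was used with scipy 1.17.1.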

Additional observations from a re-analysis of the deposited data

Results flagged for a closer look

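Id1 and Id2 differed between cKO and wild type in opposite directions at steady state and after irradiation, with both counting intervals clear of no difference. For Id2 the genotype difference after irradiation less that at steady state was 1.83 on the log2 scale of FPKM + 1, from −0.97 at steady state to 0.86 after irradiation. For Id1 it was −1.29, from 0.49 to −0.80. With 1 library in each group the difference between conditions was not tested. Across the scalings and pseudocounts tried, the value ran from 1.75 to 2.14 for Id2 and from −1.41 to −0.94 for Id1.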

How the results depend on the processing

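No paired analysis was possible because each group held 1 library. For Tcf3, Id1 and Id2 each of the 4 differences kept its direction under every pseudocount, scaling and centring tried. Id3 kept it except between irradiated libraries, where it ran from −0.11 to 0.36. Between irradiated libraries Tcf4, Tcf12 and Lyl1 also changed sign under at least 1 scaling or centring (−0.37 to 0.21, −0.06 to 0.41 and −0.35 to 0.24), as did the near-zero steady-state genotype differences of Tcf4 and Tcf12. Counts of network genes at least 2-fold apart moved as follows. Id2 counted between irradiated libraries (1 gene against 0) with upper-quartile scaling, recovered read totals, the 50 most abundant genes left out, or centring. In the irradiation comparison 1 gene remained counted in each genotype with a pseudocount of 5 or a minimum of 20 FPKM, and 1 in wild type with upper-quartile scaling. The count in cKO stayed at 2 there, as Id1 lower and Id2 higher, and stayed at 2 in wild type by the median of ratios, as Id2 lower and Tcf3 higher. With a minimum of 1 FPKM or none Lyl1 was added in both genotypes. Over all genes, a minimum of 1 FPKM or none gave 383 and 937 genes for genotype (steady state, irradiated) and 4291 and 4487 for irradiation (wild type, cKO), against 239, 350, 2801 and 2435. A minimum of 20 FPKM gave 176 between irradiated libraries and 1607 and 1069 for irradiation, a pseudocount of 5 gave 214 between irradiated libraries and 1505 for irradiation in cKO, and removing non-coding symbols gave 91 and 118 for genotype. The cause of these moves was not tested, beyond fewer or more genes being compared. The median of all genes between irradiated libraries moved from −0.45 to between −0.35 and −0.08 with scaling. Twist1 and Twist2 are limited by depth, with at most 6 reads.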
